A study of Mus musculus with 12 samples.

Results

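The comparison asks what dietary phenethyl isothiocyanate (PEITC) changes in the prostate of TRAMP mice at 16 weeks of age. It sets 2 libraries from TRAMP mice on PEITC diet against 2 from TRAMP mice on control diet, 4 of the 12 libraries of the series, chosen by their labelled strain, diet and age. All 4 came from mice of the strain C57BL/6-Tg(TRAMP)8247Ng/J, so the controls carry the transgene as well. The diets were AIN93M with 0.05% (w/w) PEITC and AIN93M without it. The tissue was ventral and dorsolateral prostate, and total RNA was sequenced. The labels do not say how many animals made a library or when the diet began. The same strain on the same diets at 24 weeks gave 2 libraries each, which are set beside the 16-week values. Wild type C57BL/6 prostates on control diet, 2 libraries at 24 weeks and 1 at 16 weeks, are given as a further level. The last of the 12 libraries is a TRAMP prostate tumor of 24 weeks on control diet. It enters the fit and the means over all libraries. Each file listed 24421 genes in FPKM, fragments scaled by transcript length and library total, and 13375 genes averaged 0.5 FPKM or more across all 12 libraries and were tested.

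In TRAMP mice the androgen-driven probasin promoter expresses SV40 T antigen in prostate epithelium, which inactivates the p53 and retinoblastoma proteins and drives those cells into division, so the oncogene acts mainly in the epithelium. PEITC is an isothiocyanate of cruciferous vegetables. Isothiocyanates react with thiol groups of proteins, among them those of KEAP1, which frees the transcription factor NRF2 to induce detoxifying and antioxidant genes, and with proteins whose damage is answered by heat shock and endoplasmic reticulum chaperones.

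The 4 libraries held 17113 to 17975 genes above 0, and their relative depth, read from the steps between values, was 0.667 and 0.854 in the PEITC libraries and 0.926 and 0.895 in the control libraries, where 1 is the deepest of the 12. Depth in reads is unknown. Hoxb13, a transcription factor of prostate epithelium, was high in all 4 libraries. It stood at 510 and 477 FPKM in the PEITC libraries and at 455 and 484 FPKM in the control libraries. The seminal vesicle list summed to at most 1.79 FPKM. These values do not show which lobes were sampled. In PEITC replicate 1 Tgm4 stood at 17.1 FPKM, against 2.93 FPKM in PEITC replicate 0 and 3.18 and 3.17 FPKM in the control libraries. The gene 9530053A07Rik stood there at 13.2 FPKM, against 0.0237, 0.315 and 0.0265 FPKM. Both were high in the 16-week wild type library, at 468 and 621 FPKM. What raised them in PEITC replicate 1 was not tested. Control replicate 0 stood apart. Across genes its log2 values correlated at r = 0.989 with those of control replicate 1, whereas control replicate 1 correlated at 0.994 with PEITC replicate 0. The macrophage list summed to 225 and 267 FPKM in the PEITC libraries and to 389 and 180 FPKM in the control libraries, the adipocyte list to 48.5 and 65.3 FPKM against 86.5 and 21.1 FPKM, and the collagen gene Col3a1 stood at 9.24 and 30.1 FPKM against 66.5 and 9.77 FPKM. Each of these was highest in control replicate 0. Leaving out that library, or any other of the 4, ended the only call at 16 weeks.

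Between the diets at 16 weeks 1 gene passed the test in the main fit, a count that differed in other fits. Of 13375 genes tested, limma called 1 at an adjusted p under 0.05 (0.00748%), and that gene, Cyp2b10, was lower on PEITC diet. Cyp2b10 encodes a cytochrome P450 that oxidises drugs and steroids, and in mouse liver it is the classic target of the constitutive androstane receptor. It stood at 24.1 and 27.3 FPKM in the PEITC libraries, against 46.5 and 48.6 FPKM in the control libraries. The groups did not overlap, and the gap between them was wider than the gap within either. The log2 fold change was -0.86 (SE 0.07, 95% confidence interval -1.04 to -0.69, limma adjusted p = 0.0395). Wild type prostates, on control diet, held 109.7 and 107.7 FPKM at 24 weeks and 112.7 FPKM in the lone 16-week library, so all 4 TRAMP values lay below wild type. That 16-week library also held seminal vesicle genes at a summed 7828 FPKM, against at most 9.0 FPKM in the 24-week wild type libraries. In bulk tissue, fewer cells of a type that expresses a gene and less of its RNA per cell cannot be told apart.

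The call on Cyp2b10 was lost in several other fits. A fit of only the 4 libraries gave the same log2 fold change with an adjusted p of 0.585 (limma), and leaving out any 1 of the 4 libraries gave -0.95 to -0.78 with adjusted p between 0.107 and 0.453.

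Cyp2b10 (ENSMUSG00000030483.14) lies on the plus strand of chromosome 7 at 25897620-25926624 (mm10, GENCODE M21), in a cluster of Cyp2 genes. Its promoter window is shown because the gene carries the only call. The window runs from 250 bases before to 50 bases after the RefSeq start (GRCm38.p6, chr7:25897408-25897707, plus strand), 53% of its bases are G or C, and the letters TATAAA, present on either strand in 13.6% of all 32851 such windows, do not occur in it.

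Cyp2b10 promoter: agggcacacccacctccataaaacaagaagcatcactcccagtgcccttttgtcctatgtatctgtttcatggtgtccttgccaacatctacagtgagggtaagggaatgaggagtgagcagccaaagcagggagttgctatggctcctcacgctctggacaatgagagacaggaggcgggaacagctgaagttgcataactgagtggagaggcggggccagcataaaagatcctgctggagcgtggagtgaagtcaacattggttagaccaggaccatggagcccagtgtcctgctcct

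None of the other Cyp2 genes of that stretch of chromosome 7 passed the test. The files list 13 Cyp2 genes there, Cyp2b10 included, and 6 were tested. Cyp2f2, an enzyme best known from lung airway cells, stood at 349 and 396 FPKM in the PEITC libraries, against 479 and 457 FPKM in the control libraries. The groups did not overlap and the log2 fold change was -0.33 (SE 0.11, limma adjusted p = 0.438), so it did not pass. Log2 fold changes were -0.08 for Cyp2s1, -0.07 for Cyp2b19, 0.18 for Cyp2a5 and -0.06 for Cyp2t4. The 7 untested genes reached at most 0.228 FPKM. Members of the Cyp2b family are similar in sequence, and how the authors counted fragments shared between copies is not given in the sources used here.

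**Figure D1:**
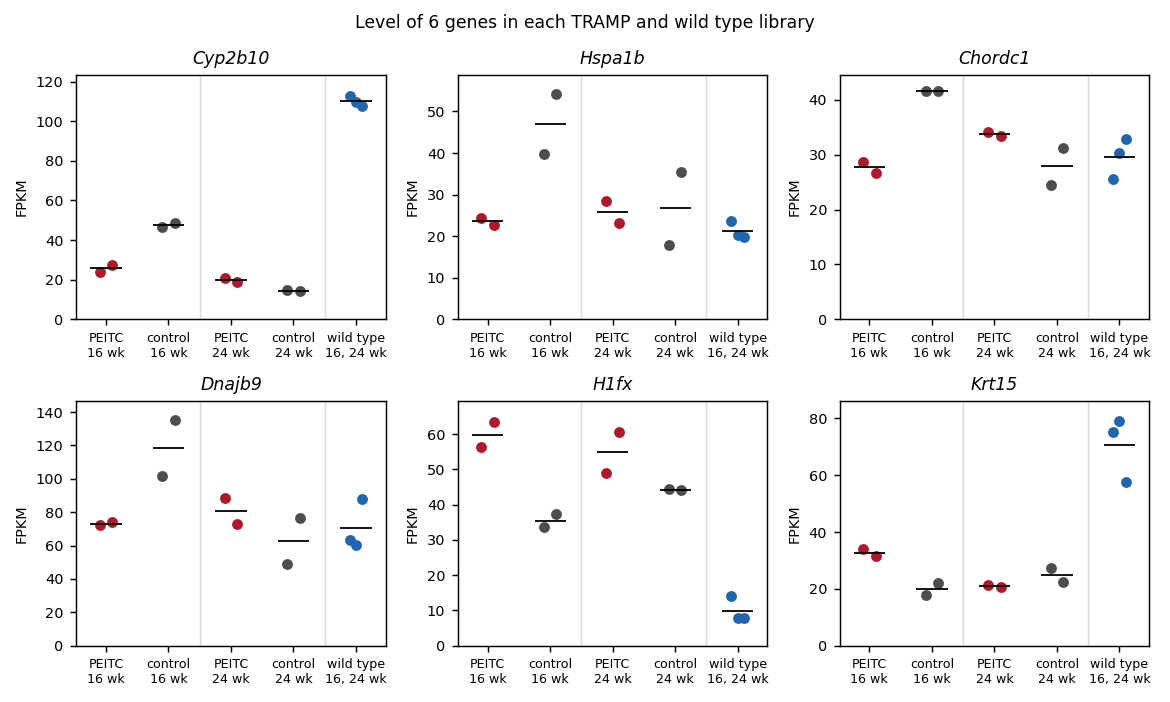
Level in FPKM of 6 genes in each library, with the mean of each group as a bar, for TRAMP mice on PEITC and control diet at 16 and at 24 weeks and for the 3 wild type libraries. Cyp2b10 is lower in both 16-week PEITC libraries (24.1 and 27.3 FPKM) than in both 16-week control libraries (46.5 and 48.6 FPKM) and is higher on PEITC diet at 24 weeks; it is the only called gene of the 6.

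For the rest of the genome the precision was limited by 2 libraries a group. The spread behind each interval and p-value was pooled over the groups of the 12-library fit, not taken from these 4 libraries alone. The median half-width of the 95% confidence interval was 0.25 on the log2 scale, and for 94.9% of genes the whole interval lay between -1 and 1. At an unadjusted p under 0.05 there were 1347 genes (10.1%), 588 higher (4.4%) and 759 lower (5.67%) on PEITC diet, and the second smallest adjusted p was 0.438 (limma). Both PEITC libraries lay above both control libraries for 2810 genes (21%) and below them for 2835 (21.2%). The median log2 fold change of all tested genes was 0.01, and 12 genes reached 1 and 8 reached -1 without passing the test; 7 of these 20 were genes of small RNAs. The median difference between replicates was 0.09 in PEITC and 0.12 in control libraries on the log2 scale. An exact permutation test of 2 against 2 cannot give a p below 0.333, so none was run. Nothing in the labels says that replicates are separate animals, so p-values speak of the spread between libraries, which may be technical.

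Xenobiotic metabolism genes were read as 1 list of 13, of which 8 were tested, 1 was called (Cyp2b10, lower) and 5 were lower in both PEITC than in both control libraries, beside 21.2% of all genes. Their median log2 fold change was -0.12, beside 0.01 for all genes. It was -0.21 without control replicate 1 and -0.08 without control replicate 0. Por, the reductase that passes electrons to microsomal P450 enzymes, stood at 147 and 149 FPKM in the PEITC libraries and at 181 and 150.1 FPKM in the control libraries (log2 fold change -0.16). Ahr, the receptor for aryl hydrocarbons, stood at 6.52 and 6.11 FPKM against 6.86 and 6.71 FPKM. Neither passed. Tiparp, a target gene of AHR, stood at 5.76 and 4.83 FPKM against 6.51 and 6.14 FPKM (-0.22), without overlap. Cyp2e1, which oxidises ethanol, stood at 2.0 and 4.2 FPKM against 2.68 and 0.161 FPKM (0.93); the groups overlapped, with control replicate 1 the low library. Cyp1a1 and Cyp1a2, the classic AHR targets, were listed at 0 in all 4 libraries, and the receptors Nr1i2 and Nr1i3, known as PXR and CAR, reached at most 0.0138 and 0.0332 FPKM. The list median at 24 weeks was 0.12.

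NRF2 targets gave no call among 32 tested genes of 33, with 4 higher and 8 lower in both PEITC libraries, beside 21% and 21.2% of all genes, and a median log2 fold change of -0.06 (0.01 without control replicate 0). Nfe2l2, which encodes NRF2, stood at 26.1 and 26.7 FPKM in the PEITC libraries and at 26.4 and 27.5 FPKM in the control libraries (log2 fold change -0.03, 95% confidence interval -0.16 to 0.10). Keap1, its inhibitor, stood at 33.9 and 34.8 FPKM against 33.5 and 33.6 FPKM (0.03, interval -0.08 to 0.15; the value was -0.035 after a correction for GC content). Both intervals are narrow. Nqo1, a quinone reductase and a common readout of NRF2, was near the filter at 0.302 and 0.378 FPKM against 0.544 and 0.248 FPKM. The groups overlapped, and the interval of -0.53 to 0.43 on the log2(FPKM + 1) scale says little about so low a gene. Hmox1, heme oxygenase, stood at 3.84 and 5.74 FPKM against 6.49 and 3.93 FPKM, also overlapping.

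Of the glutathione-synthesis pair on that list, the groups overlapped for Gclc and did not for Gclm, and neither gene passed. Over all tested genes, 21% were higher and 21.2% lower without overlap. Gclc, the catalytic subunit of the rate-limiting ligase, stood at 23.5 and 22.8 FPKM in the PEITC libraries and at 20.8 and 23.8 FPKM in the control libraries. Gclm, its modifier subunit, stood at 37.8 and 37.2 FPKM against 44.6 and 42.2 FPKM, with a log2 fold change of -0.20 that did not pass. Me1, malic enzyme, had the most negative value of the list, -0.49, with 5.19 and 5.96 FPKM in the PEITC libraries and 9.72 and 6.97 FPKM in the control libraries. Its value at 24 weeks was -0.47, also not called. Aldh3a1, an aldehyde dehydrogenase, had the most positive value, 0.32, at levels of 0.516 and 0.573 FPKM against 0.176 and 0.304 FPKM.

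Heat shock genes were lower in most members, without a call. Of 14 tested, 13 had a negative log2 fold change and 11 were lower in both PEITC libraries, beside 21.2% of all genes; the median was -0.16, and -0.15 after the GC correction. Hspa1b, the inducible HSP70, stood at 24.3 and 22.8 FPKM in the PEITC libraries and at 39.8 and 54.3 FPKM in the control libraries (log2 fold change -0.95, SE 0.28, limma adjusted p = 0.438). Its near-identical copy Hspa1a stood at 5.90 and 5.38 FPKM against 8.29 and 10.4 FPKM, and fragments shared by the pair may have been split by the counting. Dnaja1, a co-chaperone of HSP70, stood at 15 and 18.9 FPKM against 26.3 and 23.9 FPKM. Hsph1, the HSP110 exchange factor, stood at 28.2 and 26.5 FPKM against 36.3 and 41.1 FPKM. In each of these the groups did not overlap.

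The most abundant chaperones of the list differed less. Hspa8, the constitutive HSP70, stood at 497 and 497 FPKM in the PEITC libraries and at 562 and 544 FPKM in the control libraries (log2 fold change -0.15). Hsp90ab1, the constitutive HSP90, was the lone member with a positive value, at 828 and 797 FPKM against 790.3 and 795 FPKM (0.04). Hsf1, the heat shock transcription factor, stood at 16.7 and 17.6 FPKM against 19.2 and 17.6 FPKM (-0.10). None passed. At 24 weeks the list median was 0.06, with 2 members higher and 3 lower in both PEITC libraries, beside 23.7% and 20.8% of all genes.

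Chordc1, a co-chaperone of HSP90 that is not on that list, was among the 10 properly named lower genes with the smallest p. It lies on the plus strand of chromosome 9 at 18292125-18317442 (mm10). It stood at 28.7 and 26.7 FPKM in the PEITC libraries, against 41.6 and 41.6 FPKM in the control libraries, with a log2 fold change of -0.57 (SE 0.10, limma adjusted p = 0.438; -0.41 after the GC correction). Promoter windows of Chordc1 and Hsph1 are shown because each holds a heat shock element (GAA, TTC and GAA, set apart by any 2 bases each, on either strand), in capitals. That motif occurs in 0.603% of all 32851 windows and for 0.662% of the 27025 genes with a window. Among the tested members of the heat shock list with a window it occurs for 3 of 10 (Hsph1, Hspd1 and Hspe1, the last pair from a shared stretch of chromosome 1). The Chordc1 window (RefSeq, GRCm38.p6, chr9:18292017-18292316, plus strand) holds 3 overlapping matches, the first beginning 4 bases before the start, and the Hsph1 window (chr5:149636266-149636565, minus strand) holds 1 that begins 15 bases after it. Hspa1b and Hspa1a have no match to these letters in their windows.

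Chordc1 promoter: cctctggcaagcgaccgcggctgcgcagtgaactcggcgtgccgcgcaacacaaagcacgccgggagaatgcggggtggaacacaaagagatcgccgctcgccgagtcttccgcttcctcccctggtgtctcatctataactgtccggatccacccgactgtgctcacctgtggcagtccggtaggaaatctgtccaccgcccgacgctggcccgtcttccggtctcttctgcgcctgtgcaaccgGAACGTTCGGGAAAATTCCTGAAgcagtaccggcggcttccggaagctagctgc
Hsph1 promoter: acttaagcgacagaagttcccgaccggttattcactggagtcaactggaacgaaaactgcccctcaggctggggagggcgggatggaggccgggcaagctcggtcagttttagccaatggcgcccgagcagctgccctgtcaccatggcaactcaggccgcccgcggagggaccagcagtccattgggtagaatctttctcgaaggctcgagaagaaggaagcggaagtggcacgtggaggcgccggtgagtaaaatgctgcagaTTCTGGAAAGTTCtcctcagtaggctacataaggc

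Genes of endoplasmic reticulum stress and the secretory pathway gave no call among 19 tested, with 2 higher and 8 lower in both PEITC libraries, beside 21% and 21.2% of all genes, and a median log2 fold change of -0.08. Dnajb9, a co-chaperone of BiP, stood at 72.1 and 74.2 FPKM in the PEITC libraries and at 102 and 135 FPKM in the control libraries (log2 fold change -0.68). Xbp1, a transcription factor of the unfolded protein response, stood at 152 and 168 FPKM against 205 and 193 FPKM (-0.31, SE 0.07). Herpud1, a component of ER-associated degradation, stood at 256 and 266 FPKM against 298 and 386 FPKM (-0.38). These 3 did not overlap between the groups and did not pass.

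Hspa5, which encodes BiP, the main chaperone of the endoplasmic reticulum, stood at 522 and 538 FPKM in the PEITC libraries and at 590.0 and 674 FPKM in the control libraries (log2 fold change -0.25). Other chaperones of the compartment had values of the opposite sign, such as Calr, calreticulin, at 773 and 759.6 FPKM against 725 and 731 FPKM (0.07), and Sdf2l1 at 179 and 189 FPKM against 151 and 176 FPKM (0.17). The Hspa5 window is shown with its ER stress element (CCAAT and CCACG, set apart by any 9 bases, on either strand) in capitals (RefSeq, GRCm38.p6, chr2:34771840-34772139, plus strand; the match begins 65 bases before the start). That motif occurs in 0.119% of all windows and for 0.137% of all genes with a window. Of the 17 tested members of the list with a window, it occurs for 6.

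Hspa5 promoter: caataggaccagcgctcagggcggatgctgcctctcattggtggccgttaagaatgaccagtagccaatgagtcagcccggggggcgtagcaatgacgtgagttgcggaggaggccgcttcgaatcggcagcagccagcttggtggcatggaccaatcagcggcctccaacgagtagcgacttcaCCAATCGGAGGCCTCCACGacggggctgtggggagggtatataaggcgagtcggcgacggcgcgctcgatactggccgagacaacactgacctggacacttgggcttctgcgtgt

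**Figure D2:**
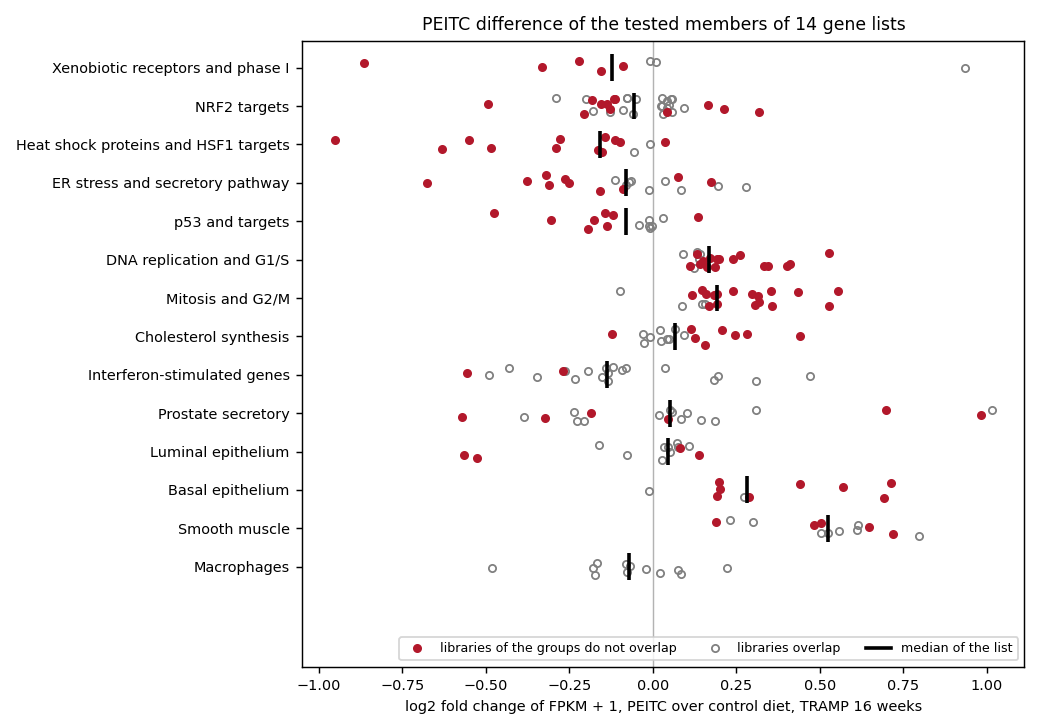
Log2 fold change of FPKM + 1, PEITC over control diet at 16 weeks, for each tested member of 14 gene lists, with filled points where both PEITC libraries lie on one side of both control libraries and a bar at the list's median. Heat shock members lie mostly below 0 (median -0.16) and DNA replication members all above it (median 0.17), and Cyp2b10 at -0.86 is the one called gene.

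Outside the lists, the 10 properly named lower genes with the smallest p that did not pass served varied functions. Acadsb, an acyl-CoA dehydrogenase of branched-chain amino acid breakdown, stood at 42.3 and 39.9 FPKM in the PEITC libraries and at 52.6 and 55.9 FPKM in the control libraries (log2 fold change -0.39). Scp2, a sterol carrier protein, stood at 64.1 and 64.6 FPKM against 99.7 and 83.5 FPKM (-0.50). Vamp7, a SNARE of vesicle fusion, stood at 16.0 and 16.7 FPKM against 24.1 and 22.4 FPKM (-0.49). The remaining genes of the 10 with a fold change, besides Chordc1, lay between -0.33 and -0.28: Tra2b and Zc3h7a, which bind RNA, Tiprl, a regulator of PP2A-type phosphatases, Slc35a5, a nucleotide sugar transporter family member, and Atg12, of the autophagy conjugation system. Mir6362, a microRNA gene, was listed at 0 in both PEITC libraries and at 1.88 and 1.94 FPKM in the control libraries, and no fold is given. It was also 0 in the 16-week wild type library on control diet, and stood at 1.85 and 3.13 FPKM in the 24-week PEITC libraries. Both 16-week PEITC libraries had a lower relative depth than both control libraries.

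The 10 properly named higher genes with the smallest p included H1fx, a linker histone. It stood at 56.4 and 63.4 FPKM in the PEITC libraries and at 33.7 and 37.2 FPKM in the control libraries (log2 fold change 0.74, SE 0.10, limma adjusted p = 0.438). The gene, on the minus strand of chromosome 6 at 87980421-87981637 (mm10), has a GC content of 71.3%, and its value was 0.59 after the GC correction. Cenpb, a centromere protein, stood at 129 and 129.8 FPKM against 92.7 and 96.1 FPKM (0.45). Erdr1 stood at 25.5 and 34.3 FPKM against 10.6 and 13.1 FPKM (1.26). Both were without overlap.

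Lgals7, which encodes an epithelial galectin, stood at 3.85 and 3.62 FPKM in the PEITC libraries and at 1.98 and 1.58 FPKM in the control libraries (0.77). Eppk1, epiplakin, which binds keratins, stood at 4.77 and 3.76 FPKM against 2.04 and 2.49 FPKM (0.69). Fam83h, which organises keratin filaments, stood at 41.6 and 39.6 FPKM against 31.6 and 33.2 FPKM (0.32). The rest were Ephb6, an ephrin receptor without kinase activity (0.50), Nab2, a corepressor of EGR1 (0.39), the peptidase gene Thop1 (0.28) and the microRNA gene Mir8091 (0.65). None passed. Of the 10 higher genes 9 had an annotated GC content, between 44.6% and 71.3%, and of the 10 lower ones 9 did, between 35.7% and 48.6%.

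Cell division genes were higher in most members without a call. All 22 DNA replication and G1/S genes had a positive log2 fold change, 17 of them were higher in both PEITC libraries, beside 21% of all genes, and the median was 0.17 (0.21 after the GC correction). Their summed level was 1086 and 1071 FPKM in the PEITC libraries and 877 and 1025 FPKM in the control libraries. Control replicate 0 was the low library, and the median was 0.10 without it and 0.30 without control replicate 1. Pole, the catalytic subunit of DNA polymerase epsilon, stood at 10.1 and 9.45 FPKM against 5.33 and 7.85 FPKM (log2 fold change 0.53). E2f1, the transcription factor that RB restrains, stood at 21.6 and 22.9 FPKM against 14.7 and 18.8 FPKM (0.40). Uhrf1, which guides maintenance methylation, stood at 26.3 and 28.1 FPKM against 15.6 and 26.1 FPKM (0.41).

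Of 21 mitosis and G2/M genes, 20 had a positive log2 fold change and 17 were higher in both PEITC libraries, beside 21% of all genes, with a median of 0.19. Mki67, the proliferation marker Ki-67, stood at 26.7 and 24.8 FPKM in the PEITC libraries and at 14.3 and 20.7 FPKM in the control libraries (0.55, SE 0.18, limma adjusted p = 0.438). Cenpf, a kinetochore protein, stood at 7.0 and 6.65 FPKM against 3.86 and 5.05 FPKM (0.53). Ccnb1, cyclin B1, was the exception, at 5.19 and 7.70 FPKM against 6.76 and 6.96 FPKM. The 24-week libraries, which share no sample with these, gave medians of 0.19 for replication and 0.22 for mitosis, and no call. There 18 of 22 and 4 of 21 members were higher in both PEITC libraries, beside 23.7% of all genes. Replication sums at 24 weeks were 950 and 990 FPKM on PEITC diet against 822 and 883 FPKM on control diet. Mitosis sums at 24 weeks overlapped, at 241 and 339 FPKM against 260 and 225 FPKM, with PEITC replicate 1 the high library. Dnmt1, the maintenance DNA methyltransferase, stood at 36.0 and 35.5 FPKM against 22.3 and 32.4 FPKM at 16 weeks (0.40), and the histone deacetylase gene Hdac1 at 31.8 and 34.0 FPKM against 34.3 and 31.8 FPKM.

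Inhibitors and sensors of the cycle did not pass. Cdkn2a, which encodes p16 and ARF, stood at 109 and 71.3 FPKM in the PEITC libraries and at 82.2 and 44.4 FPKM in the control libraries, with overlap. Cdkn1a, which encodes p21, stood at 4.49 and 4.25 FPKM against 6.75 and 2.97 FPKM. Of 14 tested members of the p53 list 12 had a negative log2 fold change and 7 were lower in both PEITC libraries, beside 21.2% of all genes (median -0.08). Trp53inp1, a p53-induced nuclear protein, was the lowest of them at 5.46 and 5.21 FPKM against 8.13 and 7.49 FPKM (-0.48).

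Basal epithelial markers were higher in most members, without a call. Of 10 tested, 8 were higher in both PEITC libraries, beside 21% of all genes, none was called, and the median log2 fold change was 0.28 (0.24 after the GC correction, 0.24 to 0.36 without each library in turn, -0.02 at 24 weeks). Krt5, a keratin of basal cells, stood at 10.8 and 10.1 FPKM in the PEITC libraries and at 5.15 and 6.97 FPKM in the control libraries (0.71). Krt15 stood at 33.9 and 31.6 FPKM against 17.9 and 22.1 FPKM (0.69). Trp63, the transcription factor that defines basal cells, stood at 1.08 and 1.04 FPKM against 0.731 and 0.883 FPKM (0.19), and Itga6 at 11.7 and 10.9 FPKM against 11.9 and 10.9 FPKM (-0.01).

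Luminal markers gave no call, with a median log2 fold change of 0.04 over 13 genes (-0.04 without control replicate 1) and sums of 3701 and 3714 FPKM in the PEITC libraries and 3849 and 3398 FPKM in the control libraries. Krt8, a luminal keratin, stood at 408 and 402 FPKM against 391 and 346 FPKM (0.14). It did not pass. Among 19 prostate secretory genes the median was 0.05 (-0.03 without PEITC replicate 1, -0.01 without control replicate 0), with 3 higher and 3 lower in both PEITC libraries, beside 21% and 21.2% of all genes. Pbsn, probasin, whose promoter drives the transgene, stood at 46.6 and 105 FPKM against 78.6 and 107 FPKM. Its groups overlapped, and its interval of -2.07 to 1.29 is wide. Trpv6, a calcium channel, stood at 18 and 22.5 FPKM against 10.5 and 13.8 FPKM (0.70), and Msmb, a secreted prostate protein, at 877 and 668 FPKM against 1231 and 1053 FPKM (-0.57).

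The smooth muscle, fibroblast and endothelial marker lists varied between libraries of the same diet. All 13 smooth muscle markers had a positive log2 fold change, with a median of 0.53, but their sum was 510 and 932 FPKM in the PEITC libraries and 442 and 529 FPKM in the control libraries, and PEITC replicate 1 was the high library. Without it the median was 0.08 and without PEITC replicate 0 it was 1.02. Myh11, smooth muscle myosin, stood at 30.9 and 74.0 FPKM against 21.5 and 34.3 FPKM. The fibroblast list summed to 241 and 353 FPKM in the PEITC libraries and to 394 and 231 FPKM in the control libraries. The endothelial list summed to 12.7 and 19.9 FPKM against 22.2 and 13.7 FPKM, and both lists overlapped. Col6a3, a collagen gene outside these lists, did not overlap, at 28.7 and 32.1 FPKM against 12.1 and 14.1 FPKM. Its log2 fold change was 1.16, and 0.66 at 24 weeks, and it passed at neither age. Mmp7, a matrix protease that epithelial cells secrete, was lower in both PEITC libraries at 185 and 258 FPKM against 529 and 331 FPKM (log2 fold change -0.93, not passed). Hemoglobin genes were listed at 0 in all 4 libraries. What share of the gene differences these cell types account for was not tested.

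**Figure D3:**
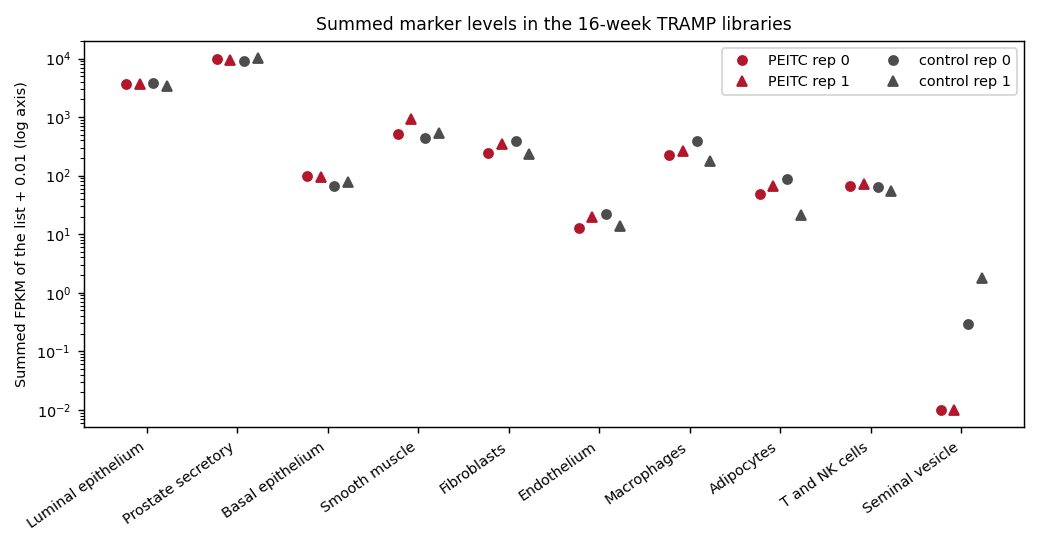
Summed FPKM (log axis, with 0.01 added) of the genes of 10 lists in each of the 4 libraries, PEITC in red and control in grey, with circles for replicate 0 and triangles for replicate 1. Smooth muscle is highest in PEITC replicate 1 (932 FPKM), macrophage and adipocyte sums are highest in control replicate 0 (389 and 86.5 FPKM), and the basal sum is higher in both PEITC libraries (100.4 and 95.7 FPKM) than in the control libraries (67.7 and 77.6 FPKM).

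Other lists held no call either. Cholesterol synthesis genes had 7 higher and 1 lower of 17 tested members in both PEITC libraries, beside 21% and 21.2% of all genes, and a median log2 fold change of 0.07. Sqle, squalene epoxidase, stood at 21.6 and 21.9 FPKM in the PEITC libraries and at 17.1 and 18.3 FPKM in the control libraries (0.28). The groups did not overlap, and the gene did not pass. The metallothionein gene Mt2, which binds zinc, stood at 230.4 and 231 FPKM against 154 and 173 FPKM (0.50), beside -0.54 at 24 weeks. Of 11 metallothionein and zinc transporter genes 5 were higher and 1 lower in both PEITC libraries, read against the same shares of all genes.

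Circadian clock genes had 0 higher and 5 lower of 16 members in both PEITC libraries, beside 21% and 21.2% of all genes (median -0.12, and -0.05 without control replicate 1; 0.21 at 24 weeks). Nr1d2, a repressor of the clock, stood at 24.5 and 26.2 FPKM in the PEITC libraries and at 34.7 and 33.1 FPKM in the control libraries (-0.41). Splicing and RNA-binding genes had 1 higher and 8 lower of 21, beside 21% and 21.2% of all genes (median -0.08), and their median was 0.01 after the GC correction, beside a median GC content of 42% in the list and 49.8% over all tested genes. Rbm3, a cold-inducible RNA-binding protein, stood at 23.4 and 27.8 FPKM against 36.0 and 34.4 FPKM (-0.45). Of 20 interferon-stimulated genes 2 were lower and 0 higher in both PEITC libraries, beside 21.2% and 21% of all genes (median -0.14, with 0.09 without PEITC replicate 0 and -0.39 without PEITC replicate 1).

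The difference between the diets went with GC content. Across 12896 tested genes with an annotated transcript, the log2 fold change at 16 weeks correlated with GC content at Spearman rho = 0.356, a description across genes that share the 4 libraries. In the decile of genes poorest in GC (median 39.7%) the median log2 fold change was -0.11, and 5.74% of genes were higher and 47.9% lower in both PEITC libraries. In the richest decile (median 59.7%) it was 0.09, with 38.2% higher and 5.90% lower. Against the mean of the 12 libraries, the correlation with GC was -0.0224 and 0.0247 in the PEITC libraries and -0.286 and -0.325 in the control libraries, so the control libraries were the ones that stood off. A correction for GC content by library left the rho at -0.02, the call on Cyp2b10 (log2 fold change -0.87, limma adjusted p = 0.0366) and 955 genes at an unadjusted p under 0.05.

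**Figure D4:**
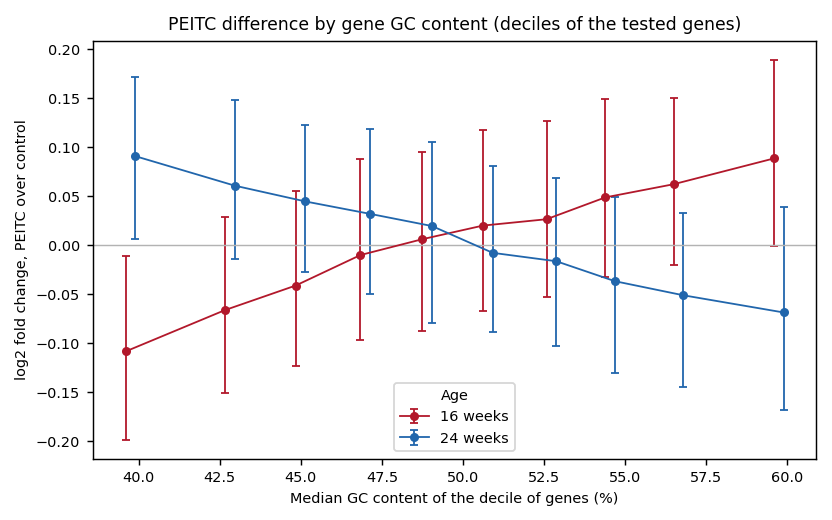
Median log2 fold change, PEITC over control diet, in deciles of the tested genes by GC content, with bars from the lower to the upper quartile, at 16 weeks (red) and at 24 weeks (blue); the x positions are offset slightly so that the bars can be told apart. The medians run from -0.11 in the poorest to 0.09 in the richest decile at 16 weeks and from 0.09 to -0.07 at 24 weeks.

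The 24-week libraries gave the same contrast in other samples. There limma called 0 of 13375 genes (0%), with 1267 (9.47%) at an unadjusted p under 0.05, 546 higher (4.08%) and 721 lower (5.39%); both PEITC libraries lay below both control libraries for 20.8% of genes. Cyp2b10 stood at 20.8 and 18.9 FPKM on PEITC diet and at 14.6 and 14.1 FPKM on control diet (log2 fold change 0.44, adjusted p = 0.465), the opposite direction to 16 weeks. The PEITC difference at 16 weeks minus that at 24 weeks was tested for every gene, and limma called 1 of 13375 (0.00748%), Cyp2b10, at -1.30 (adjusted p = 0.0245). At an unadjusted p under 0.05 there were 1720 genes (12.9%), 805 of them positive (6.02%) and 915 negative (6.84%).

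Across genes the log2 fold changes at both ages correlated at Pearson r = -0.105 and Spearman rho = -0.136, and the GC correlation at 24 weeks was -0.315. The properly named genes with the next smallest p for the difference between ages did not pass. Srsf10, a splicing regulator, stood at 26.1 and 25.1 FPKM on PEITC diet against 33.4 and 35.6 FPKM on control diet at 16 weeks, and at 32.2 and 34.3 FPKM against 24.8 and 28.7 FPKM at 24 weeks. Zfp874a, a zinc finger gene, had a difference between ages of -0.83, Snora34, a small nucleolar RNA, of 1.54, Cenpb of 0.64 and Ptx3, the long pentraxin, of 1.27 with 16-week levels of at most 0.343 FPKM.

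**Figure D5:**
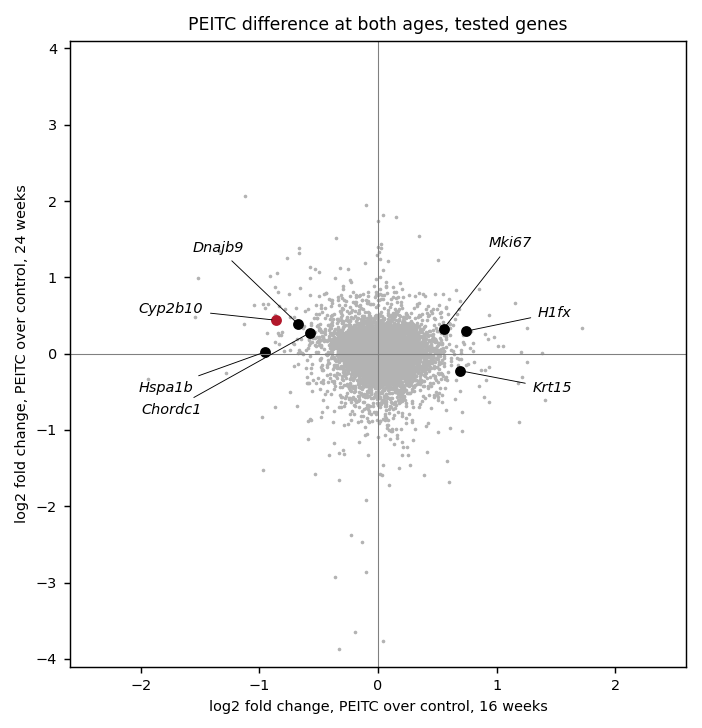
Log2 fold change, PEITC over control diet, at 16 weeks (x axis) and at 24 weeks (y axis) for the 13375 tested genes (grey), with Cyp2b10 in red and 6 further genes in black. Cyp2b10 lies at -0.86 and 0.44, and Hspa1b, Chordc1 and Dnajb9 lie to the left of 0 at 16 weeks without passing the test.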

How the data were processed

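RNA sequencing of total RNA was deposited for 12 libraries, 4 of which are compared here. The values the authors deposited are FPKM per gene; per the submitters' processing notes the genome build was mm10 and the tools were featureCounts, HISAT2, DESeq2 and Picard, with no version or role named. Neither the annotation nor any library total is given in the sources used here, so depth in reads is unknown and relative depth was read from the steps between values.

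FPKM values were converted to log2(FPKM + 1). Genes averaging 0.5 FPKM or more across the 12 libraries were fitted with limma 3.58.1 in R 4.3.3 (7 group means, 5 residual degrees of freedom, intensity trend, two-sided p-values, Benjamini-Hochberg adjustment over all 13375 genes, called under 0.05). The added 1 makes every log2 fold change of a low gene too small. Contrasts were PEITC against control diet at 16 weeks, the same at 24 weeks, and their difference. The fit was also run on simulated data with errors independent between genes and libraries. That run cannot show how library-wide trends, such as that with GC content, affect the fit. Figures used Python 3.11.15 and matplotlib 3.10.9.

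GENCODE M21 (GRCm38, the assembly of mm10; 23376 of 24421 symbols matched, 95.7%) gave gene positions and GC content. RefSeq (GRCm38.p6) gave promoter windows, which were searched for 4 motifs on both strands. The 48 lists of 690 genes and the comparison itself were chosen with earlier results of these data known, and lists are described by counts and medians only. Named genes were called genes by size and level, the 10 smallest p-values per direction where fewer than 10 were called, the 3 smallest per direction for the difference between ages, the 4 largest changes of a list with a called member, and 13 genes taken whatever their values, not all of which are reported here. The rankings by size, level and p left out gene models without a proper name. These were Gm plus number, names ending in Rik, and BC, AK or LOC plus number. Other list members given in the text, and Col3a1, Col6a3, Snord43 and 9530053A07Rik, were chosen after their values were seen. Alternatives were pseudocounts of 0.1 and 5, no filter or a mean of at least 2 FPKM, 3 other scalings, fits of fewer libraries, a replicate block, a GC correction, no trend, and leaving out each library.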

Additional observations from a re-analysis of the deposited data

Results flagged for a closer look

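The PEITC difference of Cyp2b10 had opposite signs at the 2 ages, and the test of the difference itself passed in the main fit. It was -0.86 on the log2 scale at 16 weeks (24.1 and 27.3 FPKM on PEITC diet, 46.5 and 48.6 FPKM on control diet) and 0.44 at 24 weeks (20.8 and 18.9 FPKM on PEITC diet, 14.6 and 14.1 FPKM on control diet). The 16-week difference minus the 24-week difference was -1.30 (limma adjusted p = 0.0245). The call was lost in the fit of the 8 TRAMP libraries and without the intensity trend. It was also lost without either 16-week control library and without 16-week PEITC replicate 0. The same held without 24-week control replicate 0 and without 24-week PEITC replicate 1. Across the alternatives tried the difference lay between -1.37 and -1.22 where it lost the call.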

How the results depend on the processing

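The count of genes called at 16 weeks was 2 with a pseudocount of 0.1 and 6 (3 higher) without the filter. It was 0 in a fit of only the 4 libraries, in a fit of the 8 TRAMP prostate libraries, without the intensity trend, with the replicate block and with the crossed replicate block, against 1 in the main fit. Leaving out each of the 4 libraries gave 0 to 0. At 24 weeks the count was 9 without the filter and 0 to 160 when each library was left out (160 without control replicate 2, 25 without PEITC replicate 0). For the difference between ages it was 12 without the filter, 0 with the 8 TRAMP libraries and without the trend, 2 with the crossed block, and 0 to 124 when each library was left out (124 without 24-week control replicate 2, 14 without 24-week PEITC replicate 0). The crossed block and the alternatives for 24 weeks were chosen after seeing the data. The causes were not tested.

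Cyp2b10 kept its direction under every alternative run, with adjusted p of 0.216 with 8 TRAMP libraries, 0.142 without the trend, 0.0568 with the replicate block and 0.139 with the crossed block (limma). Same-numbered replicates deviated oppositely (r = -0.31), and the labels do not say whether the numbers pair samples; they were not treated as pairs. Signs of log2 fold changes turned for Keap1 (-0.035 with the GC correction, with or without the replicate block), Hdac1 (0.017 with quantile normalization, 0.0040 when scaling ignored the 50 most abundant genes), and, with 1 library left out, for Pbsn (range -0.96 to 0.19), Nfe2l2 (-0.054 to 9.04e-05), Nqo1 (-0.21 to 0.10), Gclc (-0.039 to 0.15), Hmox1 (-0.39 to 0.21), Cdkn1a (-0.53 to 0.44), Hdac1 (-0.060 to 0.047) and Ptx3 (-0.049 to 0.38). With 2 libraries a group, differences of 1.26 (Erdr1), -0.95 (Hspa1b) and 0.74 (H1fx) on the log2 scale did not pass the adjusted threshold. Nor did the largest of either sign, -1.94 (Snord43) and 1.72 (9530053A07Rik).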

Other observations

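Over all tested genes, both PEITC libraries lay above both control libraries for 21% and below them for 21.2% at 16 weeks, and for 23.7% and 20.8% at 24 weeks. Read against these shares, glycolysis genes had 2 higher and 1 lower of 13 tested members in both PEITC libraries at 16 weeks and a median log2 fold change of -0.05, and 1 higher and 9 lower at 24 weeks with a median of -0.18. Genes of inflammatory cytokines and NF-kB targets had 0 higher and 0 lower of 15 at 16 weeks, and 0 higher and 9 lower at 24 weeks. No member of either list was called at either age (limma), and the difference between the ages was not called for any of them. Histone genes had 4 higher and 0 lower of 10 at 16 weeks (median 0.23, with 0.02 without PEITC replicate 0 and 0.60 without PEITC replicate 1), and immediate early genes 3 higher and 0 lower of 14 (median 0.25, with 0.41 without control replicate 0, 0.05 without PEITC replicate 1 and -0.06 without control replicate 1).

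Some genes of single libraries stood out. Scarna9, a small RNA of Cajal bodies, stood at 26.8 and 0.872 FPKM in the PEITC libraries and at 3.22 and 5.83 FPKM in the control libraries, and Rmrp, the RNA of a ribonuclease complex, at 24.9 and 4.53 FPKM against 2.21 and 6.86 FPKM, so PEITC replicate 0 was the high library for both. Serpina3n, an acute-phase protease inhibitor, stood at 2.23 and 9.59 FPKM against 18.6 and 1.89 FPKM, and Timp1, an inhibitor of matrix proteases, at 3.58 and 18.1 FPKM against 23.4 and 3.93 FPKM. Both were high in control replicate 0 and in PEITC replicate 1. These genes were chosen after their values were seen.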
